A study of Mus musculus with 8 samples.

Results

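The forkhead transcription factors were followed through a comparison of sorted mouse limb bud cells. Members were all probe sets of the array whose only annotated gene symbol was that of a forkhead gene of classes FoxA to FoxS, without regard to their values. This gave 82 of 45101 probe sets, for 37 genes. In all, 53 probe sets of 25 genes passed the filter on low signal, which asked for a value above the 40th percentile of the array in at least 4 of the 8 columns of the table. The samples were cells positive for green fluorescent protein, called the zone of polarizing activity (ZPA), and cells negative for it, the remainder of the limb (non-ZPA), both from Shhgfpcre heterozygotes at E10.5. Both groups therefore carried the same reporter allele at Shh, and the sort rests on a reporter made where Shh is active. How many embryos, litters or limbs each sample pooled is not stated in the labels. Of 4 samples per group, ZPA replicates 1 and 2 held the same values apart from rounding and counted once in the main test, as ZPA array 1+2. The filter counted both columns, and 22 of the 25 genes passed it on the distinct arrays. This left 3 arrays of ZPA against 4 of non-ZPA. No label says that samples came from separate embryos, so that p-values cover only the variation among these arrays, possibly technical.

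Forkhead proteins share a winged-helix DNA-binding domain and recognise short sites around the letters TGTTTA. Single classes are known for different tasks. FoxA factors open chromatin in endoderm, FoxC factors act in somites, skeleton and vessels, FoxF factors answer Hedgehog signals in gut mesenchyme, FoxM1 drives genes of mitosis, FoxO factors are held out of the nucleus by Akt, and FoxP factors are mostly repressors that act as dimers. The ZPA is the posterior limb mesenchyme that secretes Sonic hedgehog.

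The arrays were of unequal quality. Shh, which defined the sort, had an intensity of 6226, 12150 and 11190 on ZPA arrays 1+2, 3 and 4, against 203 to 1085 on the non-ZPA arrays. Limb mesenchyme markers were present in both groups, with summed intensities over 10 genes of 34230 to 35990 in ZPA and 21190 to 31850 in non-ZPA. Of the 10, 5 were higher in ZPA with no overlap between the groups, against 7.77% of all genes tested, and 0 were lower without overlap. Relative to their non-ZPA mean, bacterial spike-ins reached 1.45 and 6.10 on ZPA arrays 3 and 4 and were higher still on ZPA array 1+2, where single non-ZPA arrays held 0.794 to 1.17. For Actb, the 3 prime over 5 prime ratio, which grows as RNA is shortened, came to 21.6 on ZPA array 4, with 2.04 to 5.37 elsewhere. The part of these differences in the results below was not tested. Sample title numbers and scan days fell into 2 runs, with ZPA array 1+2 and non-ZPA replicates 1 and 2 in run 1 and replicates 3 and 4 of both groups in run 2.

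Across the family, 3 of the 25 tested genes were lower in ZPA cells, namely Foxp2, Foxj2 and Foxk1, and 0 were higher. The test was limma over all 13341 genes that passed the filter, each by its probe set of highest mean level, with Benjamini-Hochberg adjustment and a threshold of 0.05. The 3 genes are 12% of those tested, against 2.02% of all genes called lower and 0.427% called higher. At an unadjusted p under 0.05, limma gave 6 forkhead genes lower and 0 higher, 24% of those tested. The same threshold was met by 19.3% of all genes, 11.7% lower and 7.58% higher. Groups did not overlap for 5 forkhead genes, all lower in ZPA, or 20%. Of all genes, 10.6% were lower and 7.77% higher without overlap. The median log2 fold change (ZPA minus non-ZPA, of log2(intensity + 16)) was -0.17 over the forkhead genes and 0.00 over all genes. In sorted bulk samples, fewer cells of a type and less RNA per cell cannot be told apart.

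**Figure D1:**
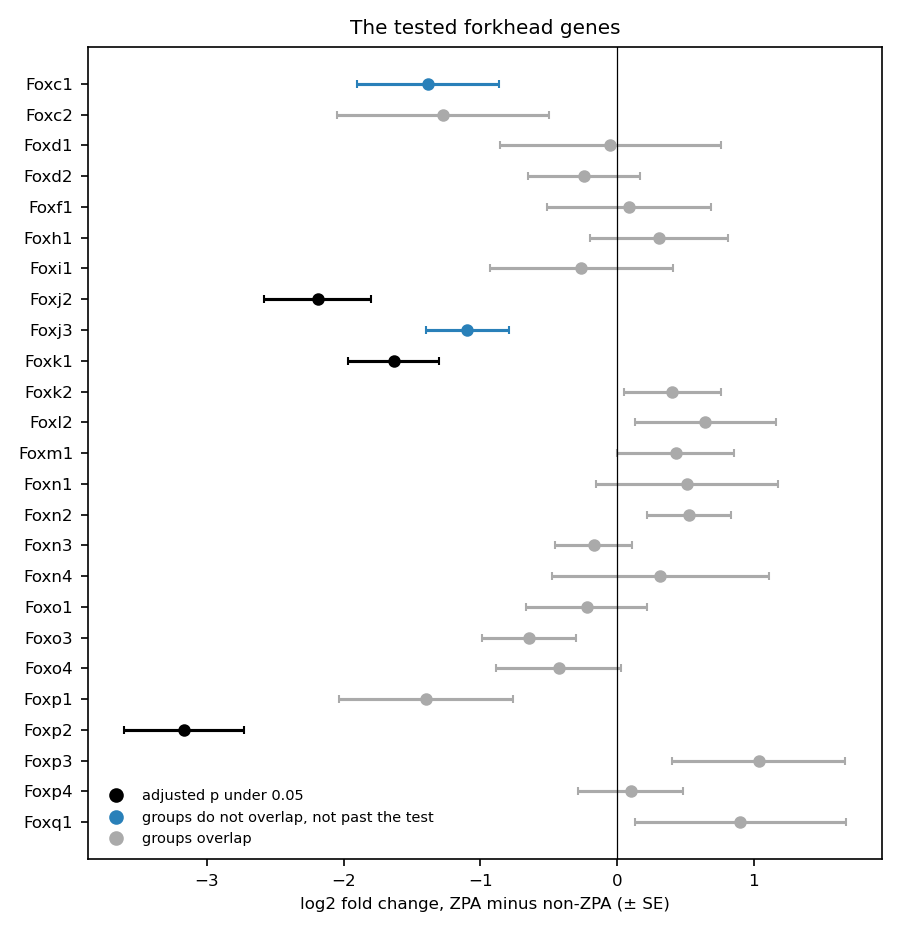
Log2 fold change (ZPA minus non-ZPA) ± SE of each tested forkhead gene, by its probe set of highest mean level, from limma with 3 ZPA and 4 non-ZPA arrays. Foxp2, Foxj2 and Foxk1 lie farthest below 0 and passed the test (black), and Foxc1 and Foxj3 (blue) had groups that did not overlap but did not pass.

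A block for the run left the same 3 genes past the test, while 3.15% of all genes were lower and 0.855% higher. Within single runs, all 3 were lower in ZPA in both, which was fixed by their groups not overlapping and adds no support. The difference on the log2 scale for Foxp2 was -2.85 in run 1 and -3.21 in run 2. For Foxj2 it was -1.55 in run 1 and -2.56 in run 2, and for Foxk1 it was -1.07 in run 1 and -1.89 in run 2. Of the 25 genes, 12 had opposite signs in the 2 runs, and the share over all genes was not worked out.

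Foxp2, a repressor best known from brain circuits for vocal learning, had the largest fall of the family. Its leading probe set (1438232_at) had an intensity of 114, 111 and 27.4 on ZPA arrays 1+2, 3 and 4, against 819, 1036, 559 and 807 on non-ZPA replicates 1 to 4. Every ZPA value lay below every non-ZPA value, and ZPA array 4 fell under the filter level of its array. The means were 84.0 ± 49.1 in ZPA and 805 ± 195 in non-ZPA (SD, n = 3 and n = 4), which is 8.98-fold lower in ZPA on the log2(intensity + 16) scale (log2 fold change -3.17 ± 0.44 SE, limma adjusted p = 0.00366). The call held when any single array was left out, with adjusted p-values from 0.00124 to 0.0187. It ended without replicate 3 of both groups (limma adjusted p = 0.0788), in a fit that called 0 of all genes.

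The other Foxp2 probe sets did not all follow. Of 5 tested, 3 were lower in ZPA without overlap and 2 had positive log2 fold changes. The second (1440108_at) had 210, 87.8 and 17.4 in ZPA against 376, 1235, 426 and 410 in non-ZPA. The third (1438231_at) had 59.8, 85.7 and 62.5 in ZPA against 182, 376, 255 and 198 in non-ZPA. In a limma fit over all 27816 probe sets they had adjusted p-values of 0.0504 and 0.0672 and did not pass. Both remaining sets stayed near the filter level, at 31.7 to 164 in ZPA and 17.7 to 86.2 in non-ZPA for 1422014_at, and at 48.6 to 113 in ZPA and 11.3 to 111 in non-ZPA for 1458191_at. The mean of all 5 tested Foxp2 sets differed by -1.26 on the log2 scale (limma adjusted p = 0.152). Another Foxp2 set (1441365_at) did not pass the filter and got no test. It had 92.5, 58.5 and 6.7 in ZPA against 42.1, 31.4, 19.3 and 7.9 in non-ZPA.

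Foxp1, of the same class and a factor that sets motor neuron columns, did not pass by its leading probe set (1435222_at). That set had 1149, 104 and 397 on ZPA arrays 1+2, 3 and 4, against 990, 1906, 892 and 593 in non-ZPA. ZPA array 1+2 lay inside the non-ZPA range and the other ZPA arrays lay below it. The log2 fold change was -1.40 (limma adjusted p = 0.255). It was -2.19 (adjusted p = 0.0192) without ZPA array 1+2, in a fit that called 1725 genes, against 326 in the main fit. Without ZPA array 3 it was -0.55 (adjusted p = 0.598). All 5 tested Foxp1 probe sets, of 8 on the array, had negative log2 fold changes. The others did not pass the filter and got no test. Of these, 1438802_at and 1443258_at were higher in ZPA (0.549 and 0.553 on the log2 scale) and 1421141_a_at lower (-0.42). The set 1435221_at had 16.7, 200 and 209 in ZPA against 992, 938, 716 and 710 in non-ZPA. Here ZPA array 1+2 was the lowest of all arrays, while in 1435222_at it was the highest ZPA array. This set was 7.25-fold lower in ZPA and passed the fit over all probe sets (log2 fold change -2.86 ± 0.58 SE, limma adjusted p = 0.0276). The other 3 tested sets ran from -0.43 to -1.61 on the log2 scale and did not pass.

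**Figure D2:**
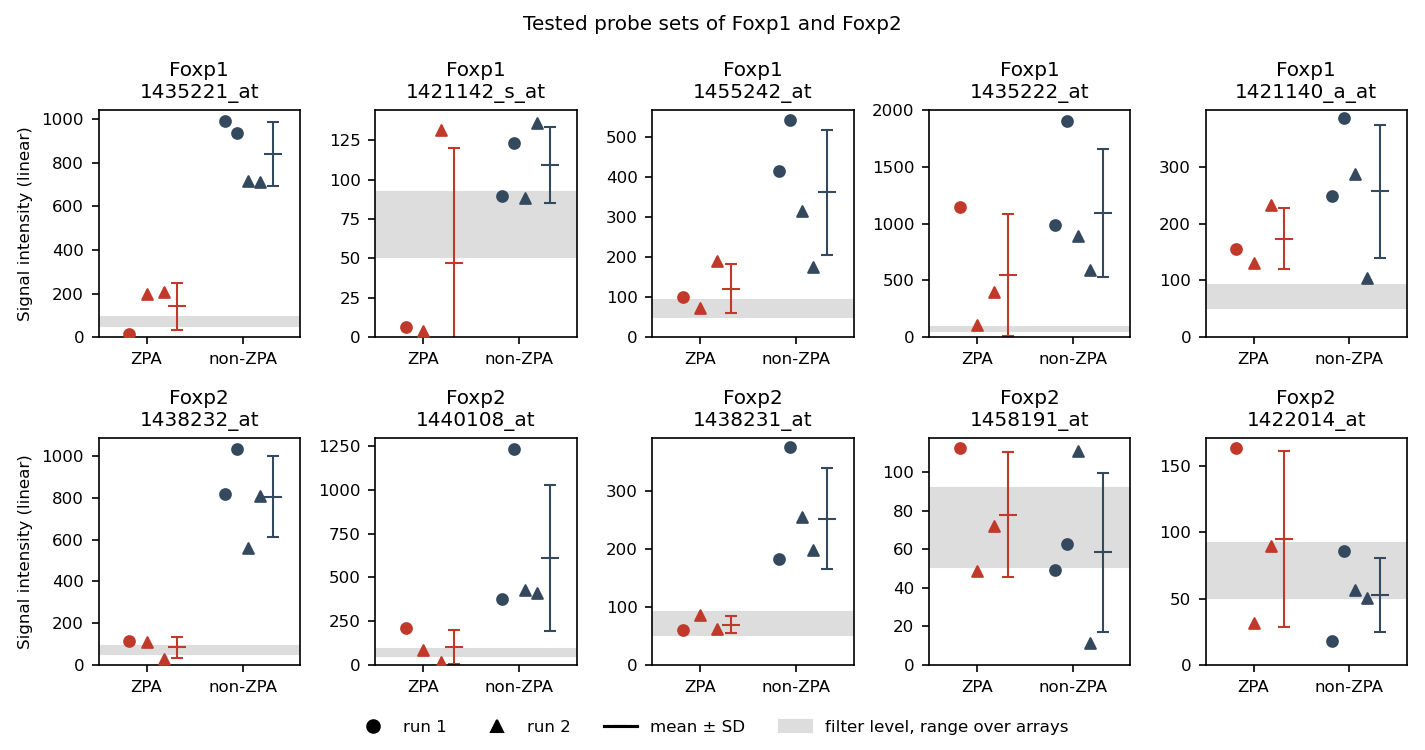
Signal intensity (linear, each panel on its own scale from 0) of the 5 tested probe sets of Foxp1 (top) and of Foxp2 (bottom), with ZPA left and non-ZPA right. Points are arrays, circles run 1 and triangles run 2, bars mark mean ± SD (n = 3 and n = 4, cut off at 0), and the grey band spans the filter levels of the arrays (50.8 to 91.9); 1435221_at, 1438232_at, 1440108_at and 1438231_at show no overlap between the groups.

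The 3 annotated Foxp1 start sites are shown because probe sets of this gene gave different sizes of change, although the files do not tie a probe set to a start site. Each promoter runs from 250 bases before the start to 50 after it (RefSeq, GRCm38.p6, minus strand, 5′ to 3′). Capitals mark the forkhead core TGTTTA, the GC box GGGCGG and the CCAAT box CCAAT, on either strand.
Foxp1 start at chr6:99520944-99521243: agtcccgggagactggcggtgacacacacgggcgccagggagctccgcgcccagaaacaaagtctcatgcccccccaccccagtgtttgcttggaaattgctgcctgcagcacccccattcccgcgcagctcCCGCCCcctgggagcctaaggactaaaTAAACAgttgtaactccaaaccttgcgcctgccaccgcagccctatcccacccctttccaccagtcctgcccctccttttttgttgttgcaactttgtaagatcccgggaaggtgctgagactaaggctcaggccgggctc
Foxp1 start at chr6:99266466-99266765: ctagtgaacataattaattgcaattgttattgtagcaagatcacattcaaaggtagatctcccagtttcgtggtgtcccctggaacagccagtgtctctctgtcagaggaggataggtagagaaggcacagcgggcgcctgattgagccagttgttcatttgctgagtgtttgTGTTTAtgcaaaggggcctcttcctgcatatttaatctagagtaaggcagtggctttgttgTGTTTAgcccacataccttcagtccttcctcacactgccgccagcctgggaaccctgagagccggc
Foxp1 start at chr6:99028249-99028548: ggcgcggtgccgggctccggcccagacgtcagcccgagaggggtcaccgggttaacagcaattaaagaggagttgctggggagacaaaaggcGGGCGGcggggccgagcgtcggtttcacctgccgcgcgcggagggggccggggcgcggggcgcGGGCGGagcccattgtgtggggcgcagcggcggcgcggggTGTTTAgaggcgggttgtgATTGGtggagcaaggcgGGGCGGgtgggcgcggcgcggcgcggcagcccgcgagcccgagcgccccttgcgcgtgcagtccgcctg
The forkhead core stood 1 time in the first, 2 times in the second and 1 time in the third. RefSeq promoters were found for 24 of the 37 forkhead genes, 29 sequences in all, with none for Foxp2 or Foxk1. Of these 29, 5 (17.2%) held the forkhead core, 21 (72.4%) the GC box and 13 (44.8%) the CCAAT box. Of the 5 with the forkhead core, 3 were the Foxp1 starts, and the others were of Foxa1 and Foxp3. Of all 32851 promoters of this length the shares were 13.4%, 35.7% and 37.4%. A Gli site, the DNA letters GACCACCCA bound by the Hedgehog effectors, was in 0 of the 29 and in 0.253% of all promoters. The forkhead promoters had a median GC content of 63.0%, against 52.7% over all promoters. A match is a description of letters, not of binding.

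The remaining FoxP genes did not pass the test. Foxp4 had 140, 184 and 252 in ZPA against 159, 131, 235 and 183 in non-ZPA, with the groups interleaved. Its other 2 tested probe sets were much higher on ZPA array 4 (402 and 257) than on ZPA arrays 1+2 and 3 (6.60 to 52.0), with non-ZPA between 85.9 and 205. Foxp3, the regulator of regulatory T cells, had 128, 32.3 and 222 in ZPA against 40.3, 30.7, 66.9 and 35.1 in non-ZPA. It stayed under the filter level on 1 ZPA and 3 non-ZPA arrays.

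Foxj2 and Foxj3, broadly expressed members of class FoxJ, were both on the low side in ZPA cells. Foxj2 had 337, 129 and 268 in ZPA against 758, 1371, 1463 and 950 in non-ZPA (1420374_at). All 7 values lay above the filter level and every ZPA value below every non-ZPA value. The means were 245 ± 106 in ZPA and 1136 ± 336 in non-ZPA, 4.56-fold lower in ZPA (log2 fold change -2.19 ± 0.39 SE, limma adjusted p = 0.0127). The call ended without non-ZPA replicate 2 (adjusted p = 0.0548) or 3 (adjusted p = 0.0643). A second Foxj2 set (1420373_at) did not pass the filter and got no test. It had 50.8, 70.2 and 21.2 in ZPA against 55, 65.1, 103 and 42.5 in non-ZPA, with the groups overlapping. Foxj3, which acts in muscle fibre and germ cell programmes in the mouse, had 3481, 2090 and 1942 in ZPA against 4433, 5172, 5953 and 5292 in non-ZPA (1435362_at). The groups did not overlap, but with a log2 fold change of -1.10 ± 0.30 SE it did not pass (limma adjusted p = 0.0751). Without ZPA array 1+2 it passed (-1.36, limma adjusted p = 0.00491), in a fit that called 1725 genes, against 326 in the main fit. Without ZPA array 3 Foxj3 did not pass (-0.99, limma adjusted p = 0.1325). Its second tested set (1438220_at) overlapped, at 109 to 423 in ZPA and 108 to 382 in non-ZPA. Foxj1, the regulator of motile cilia, did not pass the filter and had 17.7, 48.9 and 138 in ZPA against 19.9 to 36.3 in non-ZPA.

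The promoters of Foxj2 and Foxj3 are shown because these paralogues lay on the same side in the leading probe sets (RefSeq, GRCm38.p6, plus strand, 5′ to 3′, capitals as above).
Foxj2 at chr6:122819934-122820233: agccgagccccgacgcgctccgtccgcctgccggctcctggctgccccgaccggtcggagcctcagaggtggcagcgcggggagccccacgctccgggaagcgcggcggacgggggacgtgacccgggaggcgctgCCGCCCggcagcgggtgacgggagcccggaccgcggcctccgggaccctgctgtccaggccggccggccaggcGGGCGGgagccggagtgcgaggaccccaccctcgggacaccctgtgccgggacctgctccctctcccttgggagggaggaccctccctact
Foxj3 at chr4:119539411-119539710: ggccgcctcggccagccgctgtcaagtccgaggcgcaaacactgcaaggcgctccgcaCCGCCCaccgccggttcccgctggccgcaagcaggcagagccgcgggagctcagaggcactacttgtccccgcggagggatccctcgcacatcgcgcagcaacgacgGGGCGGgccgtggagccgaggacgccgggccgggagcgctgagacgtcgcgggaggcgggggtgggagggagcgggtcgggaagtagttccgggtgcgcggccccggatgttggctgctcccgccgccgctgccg
Both were rich in G and C, at 78.3% and 75.0%, and each held 2 GC boxes, with no forkhead core, CCAAT box or Gli site in these windows.

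Foxk1, a factor of muscle progenitor cells, was the third gene to fall. It had 1112, 564 and 591 in ZPA against 2380, 2336, 2620 and 1808 in non-ZPA (1434655_at). Every ZPA array lay below every non-ZPA array, with ZPA array 1+2 nearest to them. The means were 756 ± 309 in ZPA and 2286 ± 342 in non-ZPA, 3.10-fold lower in ZPA (log2 fold change -1.63 ± 0.33 SE, limma adjusted p = 0.0250). The call ended without ZPA array 3 (adjusted p = 0.0677) or without any 1 of the non-ZPA arrays (adjusted p = 0.0556 to 0.108), and the mean of its 3 tested probe sets differed by -0.54 on the log2 scale (limma adjusted p = 0.519). The other 2 sets lay near the filter level, between 10.3 and 106 in ZPA and between 36.8 and 103 in non-ZPA.

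Foxk2, the paralogue of Foxk1, had 5 tested probe sets of mixed sign. The leading set (1428353_at) had 1219, 2575 and 2946 in ZPA against 1278, 1413, 1910 and 1822 in non-ZPA. ZPA array 1+2 was the lowest of all arrays and the other ZPA arrays the highest, and the gene did not pass (log2 fold change 0.40 ± 0.36 SE, limma adjusted p = 0.583). On 1428354_at it had 795, 411 and 940 in ZPA against 1286, 1157, 1093 and 982 in non-ZPA, lower without overlap (log2 fold change -0.72, adjusted p = 0.299). On 1452753_at it had 963, 984 and 867 in ZPA against 1325, 1001, 1018 and 1220 in non-ZPA, lower by -0.27 on the log2 scale (adjusted p = 0.681). The sign of the Foxk2 difference therefore depended on the probe set. The difference between Foxk1 and Foxk2 was not tested.

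**Figure D3:**
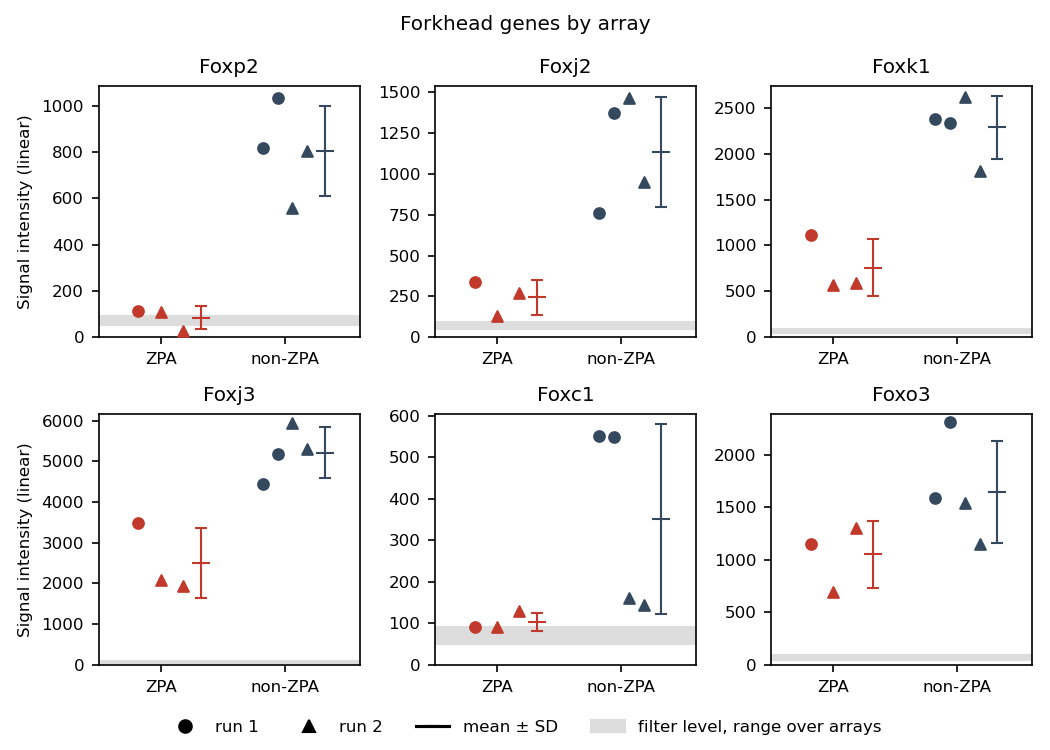
Signal intensity (linear, each panel on its own scale from 0) of 6 forkhead genes by array, with ZPA left and non-ZPA right. Circles are run 1, triangles run 2, bars mark mean ± SD (n = 3 and n = 4) and the grey band spans the filter levels of the arrays; Foxp2, Foxj2, Foxk1, Foxj3 and Foxc1 do not overlap, the 2 high Foxc1 values are both of run 1, and Foxo3 overlaps.

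Foxc1, a regulator of somites, skull and vessels, separated the groups mainly in run 1. It had 90.6 on ZPA array 1+2, against 551 and 549 on non-ZPA replicates 1 and 2 of that run (1419486_at). In run 2 it had 91.9 and 130 in ZPA, against 162 and 145 in non-ZPA. The groups did not overlap, yet the non-ZPA arrays of run 1 stood well apart from those of run 2. The log2 fold change was -1.38 ± 0.52 SE (limma adjusted p = 0.166), made up of -2.41 in run 1 and -0.44 in run 2, and a block for the run gave an adjusted p of 0.150. A second set (1419485_at) had 11.2, 9.90 and 84.0 in ZPA against 169, 332, 64.6 and 59.0 in non-ZPA. Foxc2, its paralogue, had 147, 5 and 9.20 in ZPA against 136, 114, 31.9 and 122 in non-ZPA. ZPA array 1+2 was the highest of all and the other ZPA arrays the lowest.

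Other cell types were unevenly spread between the groups. Over all genes, limma called 2.02% lower and 0.427% higher, and 19.3% had an unadjusted p under 0.05. Of 9 tested muscle precursor markers, 4 fell in ZPA (44.4%), 0 rose, and 5 were lower at that unadjusted threshold (55.6%). They summed to 595 to 1172 in ZPA and 2048 to 4812 in non-ZPA. Of 16 tested surface ectoderm markers, 2 were called lower (12.5%), and 8 were lower at the unadjusted threshold (50.0%). Their sums were 1216 to 3510 in ZPA and 4756 to 9142 in non-ZPA. Erythroid markers, with 2 of 10 lower, summed to 18960 to 59130 in ZPA and 37720 to 54950 in non-ZPA. Of 7 tested neural markers, 0 passed limma's test, and 2 were lower at an unadjusted p under 0.05 (28.6%). Their sums were 1088 to 1284 in ZPA and 2018 to 2843 in non-ZPA. Like the erythroid list, other lists had their highest sum on ZPA array 4, through a part of their members. Markers of macrophages and other leukocytes summed to 1972, 1041 and 16050 on ZPA arrays 1+2, 3 and 4, against 1318 to 2104 in non-ZPA. Of 11 tested, 0 passed limma's test and 2 were higher at an unadjusted p under 0.05 (18.2%). Pericyte and smooth muscle markers summed to 5956, 6095 and 15030 in ZPA, against 4372 to 8730 in non-ZPA. Of 6 tested, 0 passed limma's test, with 1 higher and 2 lower at an unadjusted p under 0.05 (50.0%). Pdgfrb alone gave 12360 of the sum on ZPA array 4, where Rgs5 (25.8) and Cspg4 (13.8) had their lowest value of all arrays. Endothelial markers summed to 1679, 1580 and 5888 in ZPA, against 1576 to 3768 in non-ZPA. Of 13 tested, 0 passed limma's test and 1 was higher at an unadjusted p under 0.05 (7.69%). Plvap (1391) and Cldn5 (1106) led the sum on ZPA array 4, where Tek (84.8) and Erg (128) had their lowest value of all arrays. Foxp3 and the 3 tested probe sets each of Foxp4 and Foxm1 were highest on ZPA array 4 too. So were the leading sets of Foxf1, Foxh1, Foxk2, Foxo1 and Foxq1, and the share over all probe sets was not worked out. No marker value was listed at 0. The part of these cells in the lower Foxp2, Foxj2 and Foxk1 signal, or in the high values on ZPA array 4, was not tested.

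The FoxO genes, which link insulin and growth factor signals to stress and cell cycle genes, were present in both groups and 0 of 3 passed limma's test by the leading probe set, adjusted over all genes or at an unadjusted p under 0.05. Foxo3 had 1155, 697 and 1303 in ZPA against 1585, 2309, 1545 and 1148 in non-ZPA. ZPA arrays 1+2 and 4 lay above non-ZPA replicate 4, and the log2 fold change was -0.64 ± 0.35 SE (limma adjusted p = 0.339). A second Foxo3 set (1434832_at) had 261, 198 and 516 in ZPA against 390, 1247, 756 and 693 in non-ZPA. Foxo1 had 389, 260 and 748 in ZPA against 605, 727, 538 and 257 in non-ZPA, with the groups interleaved. Its 3 tested sets lay between -0.16 and -0.29 on the log2 scale. Foxo4 went opposite ways in the runs. In run 1 it had 303 in ZPA against 1242 and 1048 in non-ZPA, and in run 2 it had 610 and 1080 in ZPA against 553 and 548 in non-ZPA.

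Of 26 tested FoxO regulators, from the insulin and Igf receptors through PI3-kinase and Akt to the 14-3-3 proteins, 0 passed by limma. An unadjusted p under 0.05 was found for 4 (15.4%), all lower, against 19.3% of all genes. Their median log2 fold change was -0.27. The 14-3-3 gene Ywhae averaged 17000 ± 756 in ZPA and 19200 ± 1878 in non-ZPA, and Ywhaq 27280 ± 14080 in ZPA and 17730 ± 813 in non-ZPA. Ywhaq had a log2 fold change of 0.51 (limma adjusted p = 0.422), which was -0.20 after quantile normalization, and Ywhae -0.17 (limma adjusted p = 0.758), which was -0.79 after it. Of 32 tested FoxO target genes, 2 fell (6.25%, against 2.02% of all genes) and 0 rose, with a median log2 fold change of -0.45. At an unadjusted p under 0.05 there were 11 lower and 1 higher, together 37.5% against 19.3% of all genes. Gadd45a, a stress and DNA repair gene, had 485, 177 and 90.6 in ZPA against 1226, 1055, 745 and 893 in non-ZPA, a log2 fold change of -2.17 ± 0.47 SE (limma adjusted p = 0.0325). Bnip3, a mitophagy receptor, had 1556, 2077 and 1180 in ZPA against 4046, 3793, 4587 and 4171 in non-ZPA, with -1.40 ± 0.29 SE (limma adjusted p = 0.0302). Neither group pair overlapped. Bnip3 lost its call without any 1 of the non-ZPA arrays (adjusted p = 0.0936 to 0.124), and Gadd45a without any 1 array other than ZPA array 1+2 (adjusted p = 0.0653 to 0.102).

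Foxm1, which drives genes of mitosis, was measured by 3 tested probe sets, all with positive log2 fold changes. The leading set (1448833_at) had 306, 369 and 872 in ZPA against 478, 315, 415 and 213 in non-ZPA. It was highest on ZPA array 4, and the groups overlapped. The set 1417748_x_at had 455, 362 and 607 in ZPA against 261, 242, 276 and 225 in non-ZPA, without overlap, and did not pass the fit over all probe sets (log2 fold change 0.85 ± 0.34 SE, limma adjusted p = 0.206). Its suffix marks probes that may match other sequences. In that fit 4 of 53 forkhead probe sets passed, 1 each of Foxp2, Foxj2, Foxk1 and Foxp1, all lower in ZPA, against 1.36% of all probe sets lower and 0.381% higher. Of 19 tested FoxM1 targets, 0 passed by limma, with a median log2 fold change of 0.10. An unadjusted p under 0.05 was found for 3 (15.8%), all higher, against 19.3% of all genes. The mitotic regulator Cdc20 averaged 20540 ± 5197 in ZPA and 13450 ± 1448 in non-ZPA (log2 fold change 0.59, limma adjusted p = 0.263). Cks1b, a cyclin-dependent kinase subunit, averaged 43470 ± 21260 in ZPA and 18970 ± 1832 in non-ZPA (1.09, limma adjusted p = 0.0980). After quantile normalization the log2 fold change was 0.089 for Cdc20 and 0.19 for Cks1b.

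Among the FoxN genes, Foxn2 had 1205, 1170 and 719 in ZPA against 715, 639, 724 and 695 in non-ZPA. ZPA arrays 1+2 and 3 stood above all non-ZPA arrays and ZPA array 4 among them, and it did not pass (log2 fold change 0.53 ± 0.31 SE, limma adjusted p = 0.382). A second Foxn2 set (1441138_at), which did not pass the filter and got no test, had 10.8, 19.9 and 15.7 in ZPA against 95.0, 75.4, 67.8 and 38.3 in non-ZPA, on the other side. Foxn3, a checkpoint repressor, had overlapping groups in all 4 tested probe sets, with 1636, 1486 and 1804 in ZPA against 1534, 2040, 1911 and 1944 in non-ZPA on 1434002_at (-0.17 ± 0.28 SE, limma adjusted p = 0.790). Its set 1438255_at was high on ZPA array 1+2 alone, with 2816, 750 and 1003 in ZPA against 921 to 1527 in non-ZPA. Foxn4 had 256, 109 and 12.6 in ZPA against 24.5, 29.8, 148 and 116 in non-ZPA. Foxn1, the thymus and hair regulator, had 181, 54.7 and 45.5 in ZPA against 10.8 to 86.3 in non-ZPA.

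The other tested members had low signal, and their groups overlapped. Foxf1, a Hedgehog-responsive gene in gut mesenchyme, had 201, 24.3 and 209 in ZPA against 89.6 to 117 in non-ZPA. Foxd2 had 261, 130 and 153 in ZPA against 135 to 313 in non-ZPA. Foxd1, a marker of kidney stroma, had 94.1, 38.2 and 6 in ZPA against 4 to 79.6 in non-ZPA. Foxq1 had 242, 16.3 and 279 in ZPA against 26.5 to 131 in non-ZPA. Foxl2, the ovarian regulator, had 290, 78.4 and 214 in ZPA against 65.2 to 162 in non-ZPA. Foxi1, of ion-transporting cells, had 145, 16.4 and 29.1 in ZPA against 38.5 to 84.5 in non-ZPA, and Foxh1, the nuclear partner of Smad proteins, had 140, 57.6 and 142 in ZPA against 45 to 109 in non-ZPA. In all, the 20 genes whose groups overlapped had log2 fold changes from -1.40 to 1.03.

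Members that did not pass the filter got no test. They were 29 probe sets, 13 of them of the 12 genes with no set past it, Foxa1, Foxa2, Foxa3, Foxb1, Foxb2, Foxd3, Foxd4, Foxe3, Foxf2, Foxj1, Foxl1 and Foxs1. Of these 13 sets, 5 were above the filter level on no array. Foxa1, the pioneer factor of endoderm, had 522 on ZPA array 1+2, against 8.40 and 23.1 on the other ZPA arrays and 12.8 to 73.6 in non-ZPA. Foxa2, of floor plate and endoderm, had 182, 14 and 9.20 in ZPA against 4.90 to 48.6 in non-ZPA. Both were thus high on the same single array. Foxf2 was the only gene of the 12 with no overlap, at 73.3, 123 and 93.1 in ZPA against 14.4 to 68.1 in non-ZPA (1418220_at), and its other set had 3.88 to 10.1 in ZPA against 4.10 to 39.5 in non-ZPA. Foxd3, of neural crest, had 28.4 to 34.7 in ZPA and 18.1 to 31.6 in non-ZPA. Foxs1 had 4.40 to 11.8 in ZPA and 2.30 to 72.8 in non-ZPA. Among the forkhead sets below the filter, 9 of 29 (31.0%) were highest on ZPA array 1+2, against 27.4% of all probe sets below it, and among those past it 15 of 53 (28.3%), against 29.5%.

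**Figure D4:**
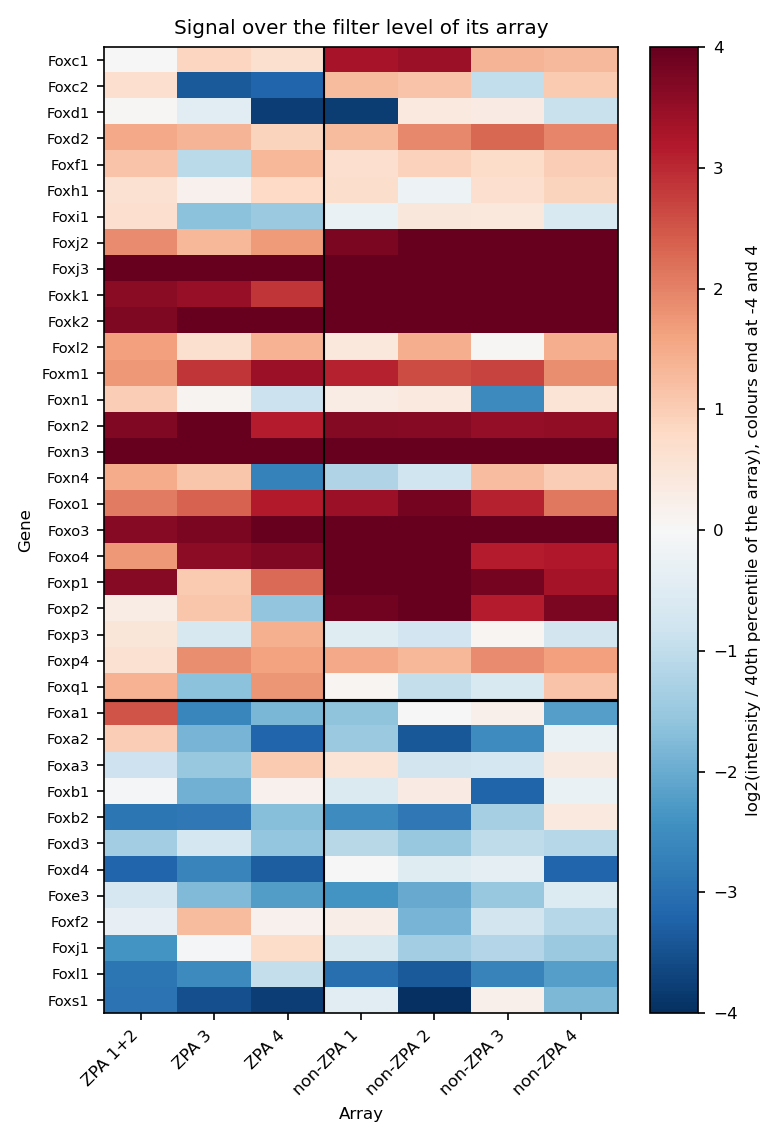
Log2 ratio of the intensity to the 40th percentile of its array, for all 37 forkhead genes (rows) on the 3 ZPA arrays (left) and 4 non-ZPA arrays (right), with 1 probe set per gene. Genes above the horizontal line passed the filter (25), and those below it did not (12); colours compare arrays within a row, since levels of different probe sets are not comparable.

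Of 28 tested cofactors of forkhead proteins, 2 rose in ZPA (7.14%, against 0.427% of all genes) and 0 fell, against 2.02% of all genes. Their median log2 fold change was 0.31. At an unadjusted p under 0.05 there were 6 higher and 2 lower, together 28.6% against 19.3% of all genes. Groups did not overlap for 4 higher and 3 lower of the 28 cofactors, where over all genes 7.77% were higher and 10.6% lower without overlap. Tle1, a Groucho corepressor, had 5820, 3103 and 4018 in ZPA against 1760, 1704, 1316 and 1154 in non-ZPA. This was 2.84-fold higher in ZPA (log2 fold change 1.5 ± 0.32 SE, limma adjusted p = 0.0312). Ctbp2, a corepressor bound by several forkhead factors, had 5398, 5911 and 5281 in ZPA against 1486, 2875, 2251 and 2609 in non-ZPA, 2.46-fold higher (1.3 ± 0.31 SE, limma adjusted p = 0.0480). In both genes every ZPA array lay above every non-ZPA array. The 2 lower cofactors at that unadjusted threshold, named after their values were seen, were Tle2 and Smad3. Tle2, a paralogue of Tle1, had 104, 50.7 and 8.80 in ZPA against 233, 206, 254 and 178 in non-ZPA, without overlap (log2 fold change -1.99 ± 0.54 SE, limma adjusted p = 0.0711). Smad3, which carries TGF-beta signals, had 1618, 3101 and 4030 in ZPA against 6162, 5277, 4526 and 4312 in non-ZPA (-0.88 ± 0.34 SE, limma adjusted p = 0.185). Tle1 lost its call without any 1 of the non-ZPA arrays (adjusted p = 0.0679 to 0.122), and Ctbp2 without any 1 array other than ZPA array 1+2 (adjusted p = 0.0608 to 0.148). The Hedgehog list held 3 tested genes. The call of Shh was fixed by the sort, and of the response genes Gli1 and Ptch1, 0 passed limma's test and 0 had an unadjusted p under 0.05. Gli1, a transcription factor that Hedgehog signalling induces, had 279, 251 and 784 in ZPA against 311, 153, 199 and 164 in non-ZPA (log2 fold change 0.89, limma adjusted p = 0.308). Ptch1, the receptor that Hedgehog signalling induces, had 17180, 7179 and 4541 in ZPA against 6693, 4524, 3746 and 2998 in non-ZPA (log2 fold change 0.94, limma adjusted p = 0.262).

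**Figure D5:**
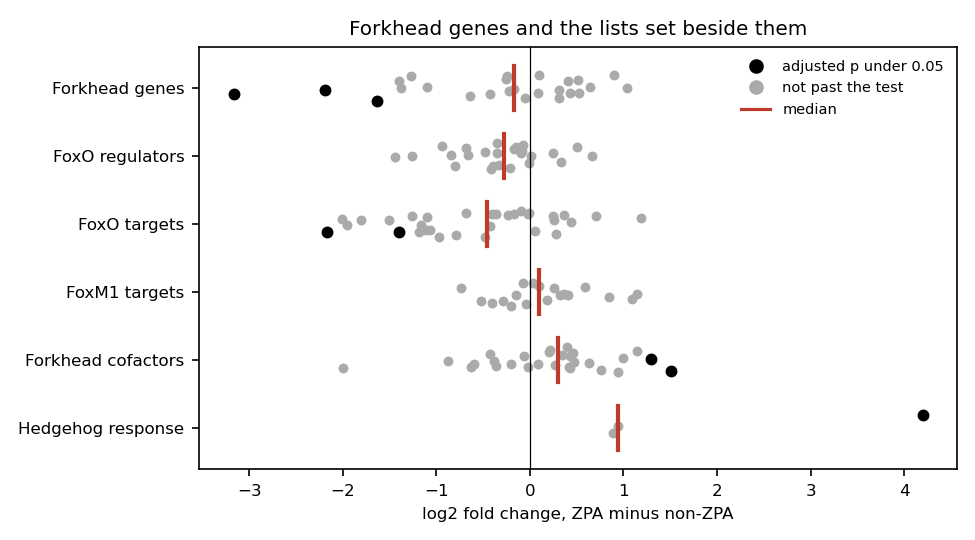
Log2 fold change (ZPA minus non-ZPA) of the tested forkhead genes (n = 25) and of the lists set beside them, FoxO regulators (n = 26), FoxO targets (n = 32), FoxM1 targets (n = 19), forkhead cofactors (n = 28) and Hedgehog response genes (n = 3). Each point is a gene, black where limma's adjusted p was under 0.05, and red bars are medians, from -0.45 for FoxO targets to 0.31 for cofactors; the Hedgehog list (median 0.94) holds Shh, whose reporter defined the sort.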

How the data were processed

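RNA was amplified from 50 ng of total RNA per sample by a 2-cycle protocol and hybridised to Mouse430_2 arrays, per the labels. The deposited table holds the authors' signal intensity, linear, per probe set and array, from GCOS 1.3 (submitters' processing notes). How probes were summarised is not given in the sources used here. Every column had a trimmed mean of 500, so that no further scaling was applied. The number of sample columns left unused was 0. The columns of ZPA replicates 1 and 2 differed by at most 0.5 units and were averaged to 1 array, which left 7 arrays. Median intensity ran from 75.2 to 133, and the number of arrays limits the precision.

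Values were used as log2(intensity + 16), on which fold changes of low genes are understated. Probe sets above the 40th percentile of their array in at least 4 of 8 columns were tested, without the 64 control probe sets, and each gene was represented by its set of highest mean log2 value. limma 3.58.1 in R 4.3.3 (lmFit, eBayes with an intensity trend, 2-sided) was used, and the script was tested on simulated data. Lists were described by counts and medians, with no set test. The forkhead members and all lists were chosen with earlier results of these data known. Statistics were given for forkhead genes past the test or without overlap and for the 6 of highest mean level, for up to 4 called members of each other list (else its 2 members of highest level), and for Shh. Outside this rule, they were also given for Foxp1, Tle2, Smad3 and Gli1, and for some forkhead probe sets that did not represent their gene. Same-numbered samples of the 2 groups carried neighbouring title numbers, so they may be pairs. Their deviations from the group means correlated at -0.02 to 0.08, which with so few arrays cannot exclude pairing. The main test was unpaired, and fits with the replicate number as a block are given below. Alternatives were the pseudocount, scaling, filter, probe set rule, run, replicate number, variance model, array weights, threshold and left-out arrays.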

Additional observations from a re-analysis of the deposited data

Results flagged for a closer look

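In 2 forkhead genes 1 of the 4 non-ZPA arrays lay far from the other 3, by the gap to its neighbour as a share of the whole range on the log2 scale. Foxc2 had 31.9 on non-ZPA replicate 3, a gap of 0.865 of the range, where the other non-ZPA arrays had 114 to 136. Foxn1 had 10.8 on the same array, a gap of 0.857, where the others had 68.5 to 86.3. Both values lay under the filter level of that array, which was 63.3. The rule was applied to 25 genes, and chance flags about 1 in 20 groups.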

How the results depend on the processing

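Foxp2, Foxj2 and Foxk1 stayed lower in ZPA under every alternative run, with log2 fold changes of -3.58 to -1.26, -2.67 to -1.55 and -1.94 to -0.54. As their groups did not overlap, this sign was fixed with arrays left out, in single runs and at other pseudocounts, and adds no support there. The count of 3 lower forkhead genes was 1 with the mean of a gene's probe sets, 5 in run 1 alone, 5 with array weights, and 0 to 6 when arrays or replicate numbers were left out. The count of higher ones was 2 in run 1 alone, whose lone ZPA array is assumed to vary like its 2 non-ZPA arrays, and 0 in the left-out fits. The 4 called forkhead probe sets were 14 in run 1 alone, 1 without the intensity trend, 12 with array weights, 7 at a threshold of 0.1, and 0 to 8 with arrays left out. The 326 genes called overall were 172 with mean probe sets, 534 with the run as a block, 3227 in run 1 alone, 1249 without replicate 1, 175 without the trend, 1233 with array weights, 890 with ZPA replicates 1 and 2 counted separately, 825 at 0.1 and 0 to 1725 with arrays left out. The 14 called list members were 22 with the run as a block, 61 in run 1 alone, 38 without replicate 1, 7 without the trend, 42 with array weights, 28 with both ZPA columns, 30 at 0.1 and 0 to 41 with arrays left out. With the replicate number as a block, 3 forkhead genes were lower with the shared ZPA array as replicate 2 (603 genes and 27 list members called) and 2 with it as replicate 1, where Foxk1 had an adjusted p of 0.0635 (286 genes called). Foxk2 changed sign with mean probe sets (-0.062) and in run 1 alone (-0.14), and Ywhaq with quantile normalization (-0.20). Without the trend Foxk1 (adjusted p = 0.0628), Bnip3 (0.0723), Gadd45a (0.0746), Tle1 (0.0744) and Ctbp2 (0.0993) lost their calls. Bnip3 and Ctbp2 also lost theirs with median centring (0.0554 and 0.0640), Gadd45a with quantile normalization (0.0640), Ctbp2 with mean probe sets (0.109) or all probe sets as features (0.0531), and Bnip3 and Ctbp2 in run 2 alone (0.0595 and 0.0721). With the replicate block, Bnip3 (0.0984), Tle1 (0.0641) and Ctbp2 (0.103) lost theirs with the shared array as replicate 1, and Ctbp2 (0.165) with it as replicate 2. Fits of run 1 or with arrays left out hold fewer samples; otherwise the cause was not tested. A filter on the 7 distinct arrays was added after the data had been seen, and tested 22 forkhead genes with the same 3 calls. Signal near the filter level limits what the FoxA, FoxB, FoxD, FoxE, FoxL and FoxS genes can show.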
